A study of Saccharomyces cerevisiae with 16 samples.

Results

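The comparison described here is the shutoff of YFH1 in budding yeast (Saccharomyces cerevisiae) whose histone H3 carries H113N, a histidine-to-asparagine change. Its members are 8 of the 16 libraries of the series, chosen by their titles and genotypes. The 4 control libraries, called H113N, carry the H3 change alone. The 4 shutoff libraries, called H113N YFH1-off, carry the H3 change together with YFH1 placed behind the GAL1 promoter, which glucose represses. Both groups thus share the mutated H3, and the promoter swap is present in the shutoff group alone, so loss of YFH1 and any other effect of building that strain cannot be told apart. The other 8 libraries carry WT H3 in the same pair of conditions and enter where an effect in H113N was set against the effect in WT, and in an alternative fit of all 16 libraries. The labels give 1 growth protocol to all samples and word it for the shutoff cells: cells from YPG, a glycerol medium, went into SC medium at an OD600 of 1, were kept at 30 °C and diluted every 12 h for 36 h, and were then grown for another 8 h, 44 h in all. The series describes the medium as fermentative. Whether the H113N controls also came from YPG is not stated separately.

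YFH1 encodes yeast frataxin, a mitochondrial matrix protein that takes part in assembling iron-sulfur clusters. Cells that make too few of these clusters behave as if short of iron: the transcription factors Aft1 and Aft2, which are held back by a signal made from mitochondrial clusters, turn on the genes of iron uptake, and enzymes that need iron, clusters or heme tend to be expressed at lower levels. The histidine changed here belongs to a copper-binding site, and the title of the series gives H3 a cupric reductase activity that the mutation disrupts. The comparison answers which parts of the response to frataxin loss were still seen in cells with that H3.

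Polyadenylated RNA was sequenced, and the deposited values are whole-number counts per gene. The H113N libraries held between 7125906 and 8680278 counts and the shutoff libraries between 8512726 and 10663540. Levels are given as CPM (counts scaled to a common library size) on library sizes scaled by the trimmed mean method of edgeR (TMM), and 1 library of this depth cannot separate a level below 0.285 to 0.405 CPM (3 counts, which covers counting error only) from 0. The first principal component held 53.9% of the variance and separated the groups, and the second held 14.3%, with H113N replicate 3 apart from the other 7 libraries. The labels do not say whether replicates came from separate cultures, so p-values measure the spread between these libraries. Of the markers of mating type, the 7 a-cell genes summed to 1927 to 2297 CPM in the controls and 1370.2 to 1482 CPM in the shutoff libraries, and the 4 alpha-cell genes to 112 to 121 and 103 to 116 CPM. No marker of either list was at 0. Among the a-cell genes the group means ran from 10.9 and 8.35 CPM for ASG7 to 939 and 634 CPM for STE2, the receptor for alpha-factor. Among the alpha-cell genes they ran from 1.52 and 1.43 CPM for MF(ALPHA)2, an alpha-factor gene, to 64.1 and 73.8 CPM for SAG1, alpha-agglutinin.

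YFH1 itself (chrIV:245923-246447, plus strand, RefSeq R64) was lower but not absent with the GAL1 promoter. It was at 52.2, 55, 61.1 and 48.5 CPM in H113N replicates 2 to 5 and at 9.56, 11.5, 9.23 and 13.1 CPM in the shutoff replicates. Every shutoff library lay below every control library, and the shutoff group kept 20% of the control mean (54.2 ± 5.33 against 10.9 ± 1.81 CPM, mean ± SD, n = 4 each, exact two-sided permutation test, p = 0.0286, which is the smallest value this design can give). Lower RNA in each cell and fewer cells with the RNA cannot be told apart in pooled cultures. The log2 fold change of -2.33 ± 0.11 (SE) was smaller than that in WT cells, -3.14 ± 0.12, and the difference of 0.84 passed the test (edgeR, adjusted p = 0.00113). Of the genes beside the altered promoter, YDL121C, an uncharacterised gene, was lower by a log2 change of -0.28 ± 0.07 (edgeR, adjusted p = 0.00669). HEM25, a mitochondrial glycine carrier, had -0.05 ± 0.08 and UBP1, a ubiquitin protease, had -0.08 ± 0.06, and neither passed (edgeR, adjusted p = 0.674 and 0.307). Of 7 galactose genes tested, 0 passed with edgeR or with DESeq2 and 1 had an unadjusted edgeR p below 0.05, while 2, on the scaling within chromosomes described further on, were called higher.

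Across all genes, 5849 were tested in the 8 libraries with edgeR's quasi-likelihood test, and 1481 passed a Benjamini-Hochberg (BH) adjusted p of 0.05, or 25.3%. Of these, 720 were higher with YFH1 off (12.3% of genes tested) and 761 were lower (13%). Counts of list members that rose or fell in H113N stand against these shares. The 2 groups of libraries did not overlap for 771 genes that were higher with YFH1 off (13.2%) and 806 that were lower (13.8%). The 12 largest rises and falls named below were chosen partly for this lack of overlap, so it is no added evidence for them. Scaling by library size alone, without TMM, turned this near-even split into 571 higher and 957 lower. Most changes were small: 1209 of the 1481 called genes, or 81.6%, moved by less than 1.5-fold. Without H113N replicate 3, the library apart on the second component, 1477 genes were called. A change of at least 2-fold was seen in 55 genes that rose (0.94%) and 19 that fell (0.325%). Of the 55, 16 belonged to the iron lists described next, and of the 19, 5 belonged to the lists of respiratory complexes II to IV and of dehydrogenases that feed them, YFH1 among the other 14. The median log2 fold change over all genes tested was -0.0047.

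Chromosomes I and II behaved apart from the rest of the genome, and this touches the genes on them. The median log2 fold change was -0.18 over 92 genes of chromosome I and -0.20 over 412 genes of chromosome II, against -0.04 to 0.06 for each of the other 14. Of the genes tested, 36 on chromosome I (39.1%) and 193 on chromosome II (46.8%) were called lower. Among the H113N libraries, the median level of chromosome II, relative to the mean of the 8 libraries, was highest in replicate 5 (0.17 on the log2 scale) and replicate 2 (0.11), and that of chromosome I in replicate 4 (0.15) and replicate 3 (0.13). In the shutoff libraries the medians of both chromosomes lay between -0.12 and -0.08, below every control library. Both arms of each chromosome had medians below 0 in all 4 shutoff libraries. What sets these 2 chromosomes apart was not tested. With counts scaled within each chromosome, an alternative chosen after seeing the data, 672 genes were higher and 618 lower. Where this scaling ended the call of a named gene, this is given with that gene. Genes that are only counted in lists could lose a call without mention.

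**Figure D1:**
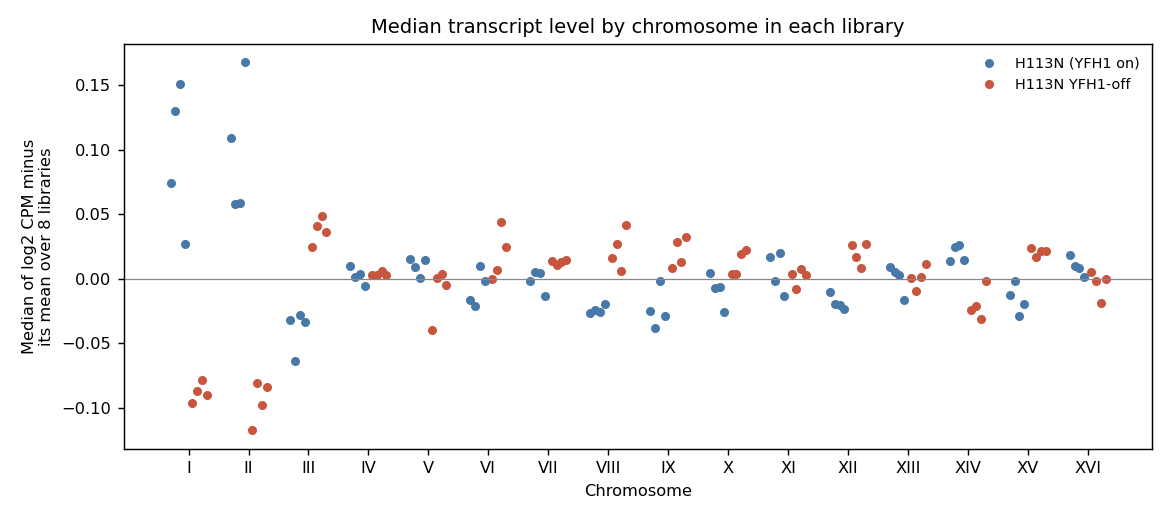
Median over genes of each chromosome of log2 CPM minus its mean over the 8 libraries (vertical axis, log2 units) for chromosomes I to XVI (horizontal axis), with 1 point per library, blue for H113N and red for H113N YFH1-off. On chromosomes I and II every red point lies below every blue point, with red points between -0.12 and -0.08.

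The strongest response left in H113N cells was that of iron acquisition at the cell surface. All 14 genes of that list rose and none fell, against 12.3% of all genes that rose, and 12 of the 14 rose at least 2-fold. Their median log2 fold change was 1.59, beside -0.0047 over all genes. The 14 hold the cell-wall mannoproteins FIT1, FIT2 and FIT3, which retain siderophores, the reductases of the FRE family, the siderophore carriers of the ARN family with ENB1, and the iron oxidase and permease pair FET3 and FTR1.

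FIT1 made the largest rise of any gene that met the naming rule. It stood at 18, 16.9, 21.5 and 23.3 CPM in the controls and 453, 545, 467 and 526 CPM in the shutoff libraries. The groups were far apart and the replicates close within each, for a log2 fold change of 4.64 ± 0.10 (edgeR, adjusted p = 5.92e-12). FIT3 went from 861, 629, 1077 and 1479 to 7005, 7526, 7434 and 7847 CPM, a log2 change of 2.88 ± 0.20 (edgeR, adjusted p = 4.34e-07). The controls varied more than the shutoff libraries here, with replicate 5 the highest and replicate 3 the lowest, yet no libraries overlapped. FIT2 rose from 907, 635, 944 and 1216 to 2849, 3206, 3142 and 3335 CPM, or 1.76 ± 0.14 on the log2 scale (edgeR, adjusted p = 2.21e-06). Per kilobase of coding sequence, FIT3 was the most abundant of the 3 in shutoff cells, at 12119 CPM per kb, before FIT2 at 6781 and FIT1 at 314.

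Among the reductases, which make ferric iron and cupric copper available for transport, FRE2 rose from 65.9, 41.7, 79.2 and 74.2 to 420.0, 428, 472 and 434 CPM, a log2 change of 2.74 ± 0.14 (edgeR, adjusted p = 4.06e-08). FRE3 had 1.66 ± 0.07 and FRE1 1.63 ± 0.09 (edgeR, adjusted p = 8.06e-09 and 1.05e-07). FRE5, a family member outside the list, had 2.49 ± 0.10 (edgeR, adjusted p = 7.96e-09). FRE4 rose least of the 14, from 16.4, 22.2, 18.1 and 16.2 to 32.4, 35.2, 30.9 and 29.1 CPM, and was the only one of them that moved the other way in WT cells, where its log2 change was -0.59 ± 0.17 (edgeR, adjusted p = 0.00706). The siderophore carrier ENB1 was at 93.2, 71.6, 108 and 107 CPM in controls and 458, 521, 474 and 496 CPM in shutoff cells, 2.36 ± 0.10 on the log2 scale (edgeR, adjusted p = 1.03e-08). ARN2, another carrier, had closely similar values in all 4 shutoff libraries (1867, 1867, 1844 and 1880.5 CPM), all above the controls (590.3, 527, 593 and 835 CPM), a log2 change of 1.55 ± 0.11 (edgeR, adjusted p = 7.05e-07). The high-affinity pair moved less and from a high level: FET3 from 3071 ± 436 to 5916 ± 189 CPM and FTR1 from 973 ± 196 to 2058 ± 120.4 CPM (mean ± SD, n = 4 each). Their log2 changes were 0.95 ± 0.08 and 1.08 ± 0.11, and neither gene's groups overlapped.

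The sequence read by Aft1 and Aft2, TGCACCC, was searched on both strands in the 400 bases before each start codon in RefSeq R64. It was found before 9 of the 14 surface genes (64.3%), 4 of the 10 vacuole and delivery genes (40%) and 108 of all 6001 protein-coding genes (1.80%). A match describes these letters and is not evidence of binding. The stretches around matches are shown for the strongest responders and for the high-affinity pair, in the direction of the gene, with the motif or its reverse complement GGGTGCA in capitals.
FIT1 (chrIV:1505066-1505092, minus strand, R64): ttctaggaaaGGGTGCAaaaaaatgaa
FIT3 (chrXV:1061223-1061249, minus strand, R64): ttctaggaaaGGGTGCAaaaaaatggg
FRE5 (chrXV:1061324-1061350, plus strand, R64): ggaacaaacaGGGTGCAaaaaaaaatc
ENB1 (chrXV:21432-21458, minus strand, R64): ggcttacaatTGCACCCctctgtggct
FET3 (chrXIII:388561-388587, plus strand, R64): tcttcaaaagTGCACCCatttgcaggt
FTR1 (chrV:461899-461925, minus strand, R64): cgtagatgaaTGCACCCgatttctaag
LSO1 (chrX:448887-448913, minus strand, R64): tcgagaatgtTGCACCCttttttccaa
FIT1 and FIT3 share most of the stretch shown although they lie on different chromosomes, and FIT3 and FRE5 are neighbours on chromosome XV that point away from each other. FRE1, FRE2, FRE3, FRE4 and ARN2 had no match in these 400 bases, which says nothing of Aft1 there.

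**Figure D2:**
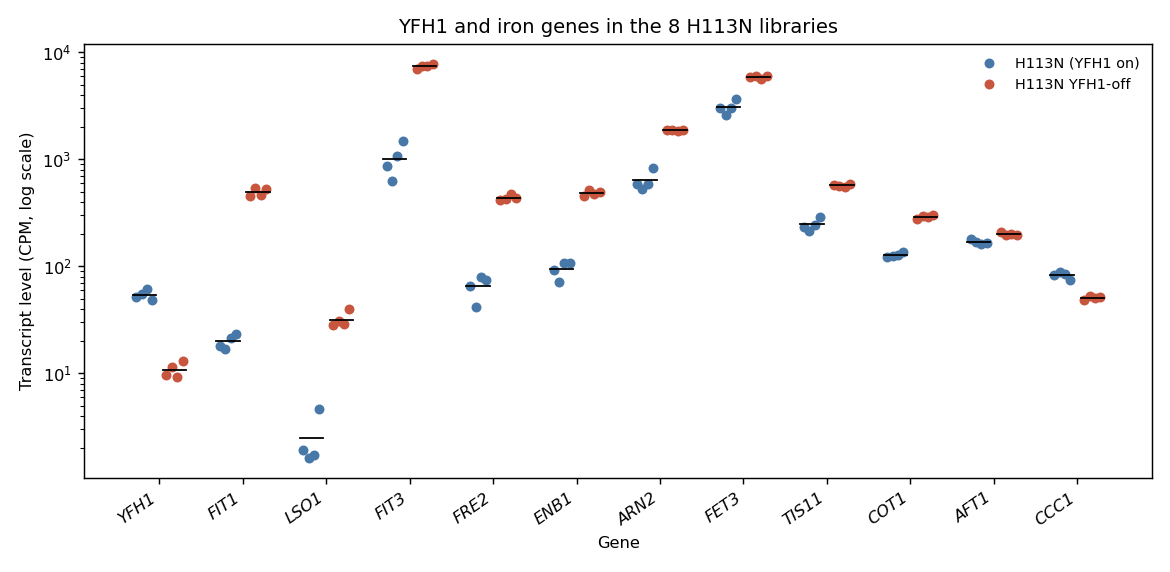
Transcript level in CPM (vertical axis, log scale) of YFH1 and 11 iron genes (horizontal axis), with 1 point per library, blue for H113N and red for H113N YFH1-off, and a bar at each group mean. FIT1 shows the widest gap, 19.9 against 498 CPM, AFT1 a narrow one, and YFH1 and CCC1 the opposite direction.

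Iron handling inside the cell changed in the same libraries by smaller amounts. Of 10 genes of the vacuole and of iron delivery to mitochondria and copper enzymes, 8 rose and 1 fell, with a median log2 change of 0.66. COT1, a vacuolar metal importer, rose from 122, 125, 128 and 138 to 275, 298, 292 and 303 CPM (1.19 ± 0.05 on the log2 scale; edgeR, adjusted p = 1.03e-08). FET5, the vacuolar counterpart of FET3, had 0.81 ± 0.06 (edgeR, adjusted p = 7.05e-07). The gene that fell was CCC1, which carries iron into the vacuole for storage: 83.2, 89.3, 85.2 and 74 CPM in controls and 48.4, 53.3, 50.5 and 51.6 CPM in shutoff cells, with no overlap (-0.70 ± 0.06; edgeR, adjusted p = 5.06e-06). Of 7 genes that spare or recycle iron, 3 rose and 1 fell. LSO1, a small gene induced by low iron, rose from 1.92, 1.62, 1.72 and 4.63 to 28, 30.5, 29.1 and 39.5 CPM, a log2 change of 3.67 ± 0.23 (edgeR, adjusted p = 2.12e-07), and replicate 5 was the highest in both groups. TIS11, also named CTH2, whose product destabilises messages of iron-using proteins, rose by 1.21 ± 0.08, and HMX1, the heme oxygenase, by 1.51 ± 0.10 (edgeR, adjusted p = 2.5e-07 and 3.71e-07). BIO5, a transporter of biotin precursors, fell from 12.6, 12.2, 12.8 and 21.4 to 4.45, 5.09, 6.66 and 8.77 CPM (-1.25 ± 0.23; edgeR, adjusted p = 0.00127), with replicate 5 the highest in each group.

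The regulators of these genes moved little at the RNA level. Of 7 regulators tested, 4 rose and 1 fell, against 12.3% and 13% of all genes. AFT1 was at 179, 169.7, 160.2 and 166 CPM in controls and 208, 198, 200.2 and 198 CPM in shutoff cells, close groups that did not overlap (0.25 ± 0.05; edgeR, adjusted p = 0.00156). YAP5, which turns on iron storage genes when iron is high, had 0.49 ± 0.08 (edgeR, adjusted p = 0.000635). AFT2 had 0.19 ± 0.05 and FRA1, part of the complex that holds Aft1 back, 0.17 ± 0.05 (edgeR, adjusted p = 0.0232 and 0.014). The AFT2 call was lost without H113N replicate 5 or shutoff replicate 2 or 5, with DESeq2 and with scaling by library size alone, and the FRA1 call without shutoff replicate 3 or with scaling within chromosomes. GRX4, a glutaredoxin of the same complex, had -0.29 ± 0.10 (edgeR, adjusted p = 0.0419), and its call was lost without H113N replicate 2, 3 or 5 or shutoff replicate 2 or 3, with all 16 libraries in the fit and with scaling within chromosomes. GRX3 (-0.03 ± 0.05) and FRA2 (-0.01 ± 0.08) did not pass (edgeR, adjusted p = 0.726 and 0.946). The effect was smaller than in WT for AFT1, where the WT log2 change was 1.11 ± 0.06 and the difference -0.83 (edgeR, adjusted p = 5.5e-07).

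Genes of the machinery that builds iron-sulfur clusters moved in both directions. Of 19 mitochondrial assembly genes, YFH1 included, 3 rose and 8 fell, against 12.3% and 13% of all genes. The share that rose is thus near the 12.3%, and the share that fell is above the 13%. YFH1, the gene turned off by design, is 1 of the 8. The median log2 change of the 19 was -0.15, and 11 of the changes were below 0. Both scaffold genes rose: ISU2 from 31.5, 32, 35.9 and 40.1 to 66.9, 69.5, 72.4 and 85.9 CPM (1.07 ± 0.09; edgeR, adjusted p = 3.46e-06) and ISU1 from 95.4 ± 6.13 to 133 ± 7.36 CPM (mean ± SD, n = 4 each; 0.48 ± 0.06; edgeR, adjusted p = 7.03e-05). ATM1, which exports a product of cluster assembly from mitochondria, had 0.15 ± 0.05 (edgeR, adjusted p = 0.0303), a call lost without any one of 6 libraries, H113N replicates 2 to 4 and shutoff replicates 3 to 5, and with scaling by library size alone. Of 8 genes of cytosolic assembly, none rose and 2 fell, with a median of -0.03. DRE2, an electron carrier to the assembly machinery, had -0.33 ± 0.06 and MET18, which helps pass clusters to target proteins, -0.23 ± 0.08 (edgeR, adjusted p = 0.000955 and 0.0483). The MET18 call was lost without any library but H113N replicate 4 or 5, with all 16 libraries in the fit and with DESeq2 size factors. The enzymes that carry clusters were lower: 11 of 14 fell and none rose, against 13% of all genes that fell, with a median log2 change of -0.46. SDH2, the cluster subunit of succinate dehydrogenase, went from 27.6, 33.4, 36.2 and 28 to 13.5, 15.8, 14.7 and 15.5 CPM (-1.07 ± 0.10; edgeR, adjusted p = 9.47e-06). LIP5, lipoate synthase, fell from 101, 111, 106 and 92.4 to 64.8, 64.7, 63.7 and 65.5 CPM, a modest step but with no overlap (-0.66 ± 0.06; edgeR, adjusted p = 3.89e-06). In WT cells all 14 fell, against 25% of all genes that fell there, with a median of -1.87, and the difference from H113N passed the test for each of the 14 (30.8% of all genes passed it).

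Biotin and heme synthesis, which both use iron, held further falls. Of 6 genes of biotin synthesis and uptake, 3 fell, each at least 2-fold, and 1 rose. BIO2, biotin synthase and itself a cluster enzyme, was at 169, 141, 143 and 202 CPM in controls and 73.4, 69.1, 78.1 and 107 CPM in shutoff cells (-1.01 ± 0.13; edgeR, adjusted p = 0.000146). BIO4, dethiobiotin synthetase, fell by 1.11 on the log2 scale (SE 0.18; edgeR, adjusted p = 0.00051). The gene that rose was BPL1, biotin-protein ligase, at 0.27 ± 0.06 (edgeR, adjusted p = 0.003). Replicate 5 was the highest library of its group for BIO2, BIO4 and BIO5 in both groups. Of 8 genes of heme synthesis, 4 fell and none rose. HEM15, ferrochelatase, which inserts the iron, had -0.61 ± 0.06, and HEM13, coproporphyrinogen oxidase, -0.52 ± 0.12 (edgeR, adjusted p = 1.85e-05 and 0.00544). HEM1, the first enzyme of the pathway, had -0.19 ± 0.05 and HEM14, protoporphyrinogen oxidase, -0.23 ± 0.05 (edgeR, adjusted p = 0.0087 and 0.00673).

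The respiratory chain was lower as a block. All 4 genes of complex II, all 10 of complex III and cytochrome c and all 8 of complex IV fell, against 13% of all genes, with median log2 changes of -0.95, -0.90 and -0.64. CYC1, the main cytochrome c, had the largest fall of the 22, from 21.5, 21.8, 22.5 and 20.9 to 5.76, 4.90, 6.56 and 8.17 CPM. Its controls were nearly identical and its shutoff libraries spread more widely below them (-1.78 ± 0.13; edgeR, adjusted p = 6.28e-07). COR1, a core subunit of complex III on chromosome II, was at 330.0, 304, 318 and 327 and 136, 143, 155 and 148 CPM (-1.13 ± 0.05; edgeR, adjusted p = 1.38e-08) and passed also with counts scaled within chromosomes. Its partner QCR2 had -0.98 ± 0.06 and cytochrome c1, CYT1, -1.08 ± 0.08 (edgeR, adjusted p = 2.36e-07 and 7.05e-07). SDH3, a membrane anchor of complex II, went from 87.2, 89, 93.4 and 80 to 45.1, 48.2, 46.4 and 44.5 CPM (-0.92 ± 0.06; edgeR, adjusted p = 2.5e-07). The flavoprotein subunit gene SDH1 had -0.98 ± 0.10 and the other anchor, SDH4, -0.89 ± 0.10 (edgeR, adjusted p = 1.76e-05 and 4.66e-05). In complex IV, COX6 had -0.88 ± 0.08 and COX5A, the isoform used in air, -0.65 ± 0.06 (edgeR, adjusted p = 3.65e-06 and 4.88e-06).

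The binding box of the Hap2/3/4/5 activator, CCAAT, was present in the 400 bases before 4 of 4 complex II genes, 8 of 10 of complex III and cytochrome c, and 7 of 8 of complex IV. These 5 letters are common, and 52.8% of all genes had them. Examples are shown for 3 named subunits, with the box or its reverse complement ATTGG in capitals.
SDH3 (chrXI:179628-179652, plus strand, R64): ccaaaaattgCCAATcacaagctct
QCR2 (chrXVI:919186-919210, plus strand, R64): tcccaacgaaCCAATagaaggcccg
COX6 (chrVIII:209480-209504, plus strand, R64): aagggacctaATTGGtccggtcaaa
Of 5 genes for the Hap activators, 1 rose and none fell. HAP1, the heme-responsive activator, had 0.22 ± 0.05 (edgeR, adjusted p = 0.00544), and HAP3, on chromosome II, -0.15 ± 0.10 (edgeR, adjusted p = 0.289). HAP4, the regulated activating subunit, was at 82.6, 87.4, 82 and 70.5 CPM in controls and 73.3, 72.9, 82.9 and 77.4 CPM in shutoff cells. Its groups overlapped and the log2 change of -0.07 ± 0.07 did not pass (edgeR, adjusted p = 0.481). In WT, HAP4 fell by a log2 change of -2.29 ± 0.09, and the difference of 2.25 passed (edgeR, adjusted p = 3.49e-10).

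All 14 ATP synthase genes fell, against 13% of all genes, with a median log2 change of -0.46 in H113N and -0.60 in WT. The difference passed the test for 3 of the 14, a smaller share than the 30.8% of all genes. The catalytic subunit gene ATP1 was at 1416, 1177, 1348 and 1438 CPM in controls and 840.2, 817, 886 and 854 CPM in shutoff cells (-0.66 ± 0.06; edgeR, adjusted p = 9.47e-06). ATP3, the gamma subunit, had -0.81 ± 0.06 (edgeR, adjusted p = 4.29e-07). Both lie on chromosome II and passed also with counts scaled within chromosomes. In WT the changes were -0.67 ± 0.07 and -0.66 ± 0.07, and neither difference passed (edgeR, adjusted p = 0.803 and 0.348). These changes and differences were taken without that scaling, so the H113N side includes the shift of chromosome II, whose median was -0.20. Closeness to WT in these 2 genes is therefore uncertain. Changes in the mitochondrial ribosome were smaller: 48 of 68 protein genes fell, against 13% of all genes, and none rose. The median was -0.28 in H113N and -0.35 in WT, and 15 of the 68 differences passed, again a smaller share than the 30.8%. MRPL27 fell from 43.5, 40.5, 43 and 41.2 to 24.7, 28.7, 28.9 and 28 CPM (-0.61 ± 0.07; edgeR, adjusted p = 3.51e-05) and MRPL16 had -0.47 ± 0.05 (edgeR, adjusted p = 2.73e-05). Both are on chromosome II, and both stayed past the threshold with scaling within chromosomes, at -0.41 and -0.28.

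Other steps around the chain were less uniform. Of 7 dehydrogenases that pass electrons to it, 3 fell and none rose, with 1 call when all 16 libraries were fitted together. CIR2, a putative flavoprotein dehydrogenase, went from 109.8, 117, 109.8 and 86.8 to 49.4, 48.2, 46.3 and 47.1 CPM (-1.15 ± 0.08; edgeR, adjusted p = 6.25e-07). NDI1, the internal NADH dehydrogenase, had -0.42 ± 0.08 (edgeR, adjusted p = 0.00269), with H113N replicate 4 above the other controls, and its call was lost with all 16 libraries in the fit. CYB2, which oxidises lactate, had -0.42 ± 0.09 (edgeR, adjusted p = 0.00353), a call also lost with all 16 libraries. In the citric acid cycle 5 of 11 genes fell, 2 with all 16 libraries, and 2 rose, against 13% and 12.3% of all genes. The 5 were KGD1 at -0.40 ± 0.06 and KGD2 at -0.44 ± 0.06, subunits of 2-oxoglutarate dehydrogenase, MDH1, malate dehydrogenase, at -0.34 ± 0.08, ACO1, the cluster enzyme aconitase, at -0.31 ± 0.08, and LPD1, dihydrolipoamide dehydrogenase, at -0.20 ± 0.06. Their adjusted p from edgeR lay between 0.000155 for KGD2 and 0.0254 for LPD1, and the LPD1 call was lost without any one of 6 libraries, H113N replicates 2, 4 and 5 and shutoff replicates 2 to 4. The 2 that rose were the subunits of NAD-dependent isocitrate dehydrogenase, which makes 2-oxoglutarate. IDH1 went from 158, 138, 163 and 153 to 283, 322, 322 and 346 CPM and IDH2 from 229, 185, 219 and 185 to 348, 423, 407 and 432 CPM. Neither overlapped, and the log2 changes were 1.06 ± 0.07 and 0.98 ± 0.08 (edgeR, adjusted p = 2.55e-07 and 3.24e-06). These rises were 1.18 ± 0.16 and 0.67 ± 0.13 in WT, and the difference passed for neither (edgeR, adjusted p = 0.783 and 0.184).

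**Figure D3:**
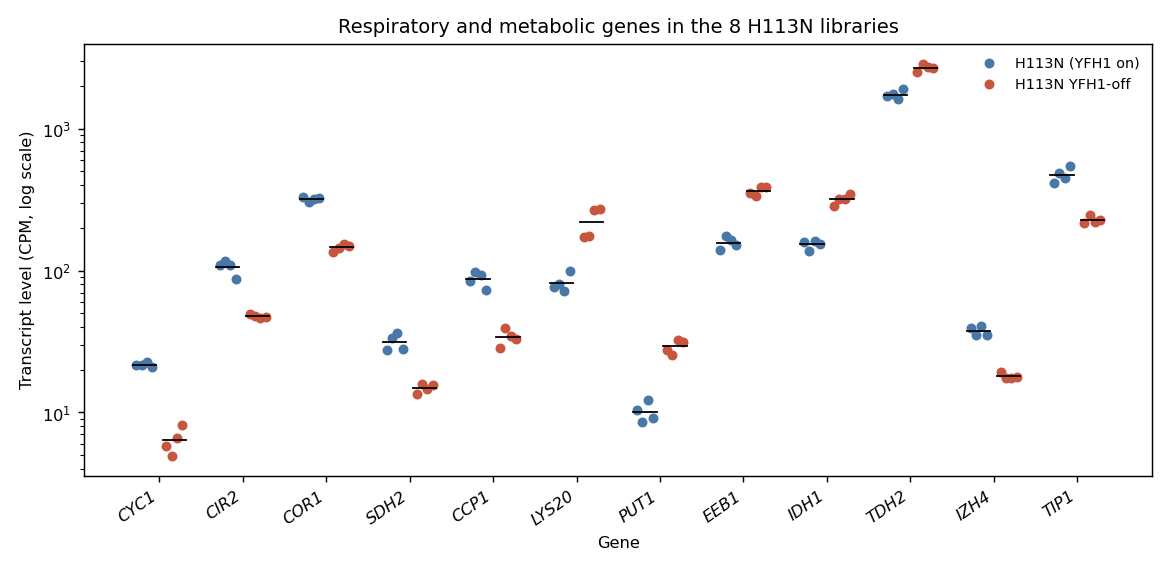
Transcript level in CPM (vertical axis, log scale) of 12 respiratory and metabolic genes (horizontal axis), with 1 point per library, blue for H113N and red for H113N YFH1-off, and a bar at each group mean. CYC1, CIR2, COR1, SDH2, CCP1, IZH4 and TIP1 are lower and LYS20, PUT1, EEB1, IDH1 and TDH2 higher with YFH1 off, with no overlap between groups.

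Genes that low oxygen and low heme turn on were raised. Of 20 listed, 13 rose and 2 fell, with a median log2 change of 0.35. DAN1, a cell-wall protein of anaerobic cells, stayed scarce but rose from 2.16, 2.57, 1.72 and 2.56 to 11.7, 8.83, 9.32 and 10.6 CPM (2.16 ± 0.17; edgeR, adjusted p = 1.5e-06). TIR2, another anaerobic wall protein, rose from 43.5, 45.3, 44.4 and 48.6 to 101, 89.4, 93.9 and 82.6 CPM (1.02 ± 0.07; edgeR, adjusted p = 3.81e-07). In WT cells the DAN1 change was 10.63 ± 0.21 and the TIR2 change 4.10 ± 0.12, and both differences passed (edgeR, adjusted p = 3.48e-10 and 5e-10). The 2 that fell were HEM13, given above, and COX5B, the complex IV isoform of low oxygen, at -0.36 ± 0.12 (edgeR, adjusted p = 0.0405). The COX5B call was lost without any library but H113N replicate 3 or shutoff replicate 4, and with all 16 libraries in the fit. In ergosterol synthesis, whose oxygen-dependent steps use heme or iron, 11 of 22 genes rose and 4 fell. The 11 became 7 with scaling by library size alone and 7 without H113N replicate 2. ERG3, the C-5 sterol desaturase and an iron enzyme, rose from 691, 743, 671 and 795 to 1135, 1236, 1169.8 and 1249 CPM (0.72 ± 0.06; edgeR, adjusted p = 3.21e-06). ERG27, the 3-keto sterol reductase, had 0.42 ± 0.06 (edgeR, adjusted p = 0.000133). The genes that fell were ERG1, squalene epoxidase, at -0.29 ± 0.05, ERG11 and ERG5, heme enzymes of the cytochrome P450 family, at -0.30 ± 0.07 and -0.17 ± 0.06, and IDI1, which acts early in the pathway, at -0.29 ± 0.05 (edgeR, adjusted p = 0.00135, 0.0062, 0.0357 and 0.000658). The ERG5 call was lost without any library but H113N replicate 5 or shutoff replicate 4.

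Copper and zinc genes were tested as other metals. Of 10 copper genes tested, 3 rose and none fell, and the 2 copies of CUP1, the copper metallothionein, did not pass the filter on low counts. CTR1, the surface copper carrier, rose from 16.5, 16.5, 16 and 21.8 to 27.6, 26.3, 32.9 and 29 CPM (0.71 ± 0.11; edgeR, adjusted p = 0.000413), a call lost with all 16 libraries in the fit. CTR2, the vacuolar carrier, had 0.54 ± 0.07 and SOD1, copper-zinc superoxide dismutase, 0.28 ± 0.06 (edgeR, adjusted p = 0.000109 and 0.00314). Of 10 zinc genes, 6 rose and 3 fell. ZPS1, a wall protein induced by low zinc, varied among the controls, at 319, 758, 449 and 710.1 CPM, yet lay higher in every shutoff library, at 1205, 1632, 1976 and 1842 CPM (1.57 ± 0.23; edgeR, adjusted p = 0.00028), and its change in WT was 1.51 ± 0.39. IZH4, IZH1 and IZH2, membrane proteins of zinc homeostasis, fell: IZH4 from 39.4, 35.3, 40.8 and 35.4 to 19.3, 17.4, 17.6 and 17.8 CPM (-1.07 ± 0.08; edgeR, adjusted p = 7.47e-07) and IZH1 and IZH2 by log2 changes of -0.59 ± 0.05 and -0.33 ± 0.07 (edgeR, adjusted p = 5.12e-06 and 0.00258).

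Genes of lysine and arginine synthesis rose in H113N. In lysine synthesis 7 of 9 genes rose and none fell, with a median log2 change of 0.41 in H113N and -0.11 in WT, and the difference passed the test for 7 of the 9, 6 of them more positive in H113N. Homocitrate synthase, the first step, has paralogous genes, and reads shared by paralogs may not be assigned cleanly. LYS20 was at 77.2, 79.8, 71.7 and 99 CPM in controls and at 173, 176, 267 and 270.4 CPM in shutoff cells, where replicates 4 and 5 lay well above replicates 2 and 3 and all 4 above the controls (1.43 ± 0.15; edgeR, adjusted p = 1.96e-05). LYS21 had 0.41 ± 0.06 in H113N and -0.15 ± 0.05 in WT (edgeR, adjusted p = 0.000245 and 0.0319). The Lys14 motif TCCNNNGGA, which is its own reverse complement, was found before 5 of the 9 (55.6%) and before 4.62% of all genes, and before LYS21 but not LYS20. It is shown in capitals for LYS21.
LYS21 (chrIV:227053-227081, plus strand, R64): gagttgaaatTCCGCTGGAaatcgtcacc
In arginine synthesis and use 9 of 11 rose and none fell, with a median log2 change of 0.36 in H113N and 0.26 in WT. In WT 5 of the 11 rose and 4 fell, against 24.5% and 25% of all genes there. The difference passed for 7 of the 11, 4 of them more positive and 3 more negative in H113N. ARG5,6, which encodes a pair of enzymes of the pathway, rose from 123, 128, 114 and 123 to 171, 168, 224 and 222 CPM (0.68 ± 0.09; edgeR, adjusted p = 0.000155), again highest in replicates 4 and 5. ARG7, ornithine acetyltransferase, had 0.50 ± 0.06 in H113N and -0.16 ± 0.05 in WT (edgeR, adjusted p = 5.67e-05 and 0.0211).

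Of 13 genes of leucine, isoleucine and valine synthesis, 5 rose and 2 fell, against 12.3% and 13% of all genes. The share that fell is thus near that of all genes. LEU1, isopropylmalate isomerase and a cluster enzyme, fell from 205, 314, 238 and 187 to 115, 132, 125 and 113.1 CPM, with H113N replicate 3 the highest control (-0.96 ± 0.13; edgeR, adjusted p = 0.000139). BAT2, the cytosolic branched-chain aminotransferase, rose from 78.9, 67.6, 78 and 73.9 to 150.1, 154, 150.1 and 171 CPM (1.06 ± 0.06; edgeR, adjusted p = 1.44e-07). The other rises were ILV6 at 0.53 ± 0.09, the regulatory subunit of the first shared enzyme, LEU2 at 0.43 ± 0.09, isopropylmalate dehydrogenase, OAC1 at 0.31 ± 0.06, a mitochondrial carrier, and ILV5 at 0.18 ± 0.05, the reductoisomerase (edgeR, adjusted p = 0.000659, 0.00258, 0.00125 and 0.0218). The ILV5 call was lost without shutoff replicate 3 or 5, with scaling by library size alone and with scaling within chromosomes. LEU2 fell in WT, at -0.94 ± 0.12 (edgeR, adjusted p = 8.21e-06). ILV3, dihydroxyacid dehydratase and a cluster enzyme, fell by a log2 change of -0.49 ± 0.07 (edgeR, adjusted p = 0.00023). Of 10 genes of glutamate, glutamine and proline metabolism, 6 rose and 1 fell, against the same 12.3% and 13%. The gene that fell was GLT1, glutamate synthase and a cluster enzyme, at -0.62 ± 0.08 (edgeR, adjusted p = 0.000156). PUT1, proline oxidase, rose from 10.4, 8.51, 12.2 and 9.13 to 27.6, 25.5, 32.4 and 31.4 CPM (1.53 ± 0.12; edgeR, adjusted p = 1.51e-06).

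Glycolysis and stress genes changed in part. Of 17 glycolytic genes, 8 rose and none fell, and the 8 became 5 without shutoff replicate 3. ENO2, enolase, rose from 5604 ± 343 to 8616 ± 419.8 CPM and TDH2, glyceraldehyde-3-phosphate dehydrogenase, from 1741 ± 119 to 2695 ± 158 CPM (mean ± SD, n = 4 each), and both have close paralogs. Their log2 changes were 0.62 ± 0.06 and 0.63 ± 0.06 (edgeR, adjusted p = 4.88e-06 and 9.83e-06). In WT, TDH2 was lower at -0.60 ± 0.11 (edgeR, adjusted p = 0.000191). Of 20 heat shock genes, 11 rose and 1 fell. HSP42, a small heat shock protein, had 0.83 ± 0.11 and STI1, a co-chaperone, 0.52 ± 0.07 (edgeR, adjusted p = 0.000157 and 9.76e-05). The gene that fell was HSP12, a membrane-protecting stress protein, from 781, 326, 472 and 628 to 273, 268, 207 and 286 CPM (-1.09 ± 0.20; edgeR, adjusted p = 0.0016). Its controls ranged widely and H113N replicate 3 was close to the shutoff level, and the call was lost with all 16 libraries in the fit. Of 28 oxidative stress genes, 6 rose and 7 fell, against 12.3% and 13% of all genes. The 6 rose by 0.17 to 0.79 on the log2 scale, SOD1 among them. Of those that fell, CCP1, the heme enzyme cytochrome c peroxidase, fell from 84.4, 97.1, 92.7 and 73.6 to 28.5, 39.2, 34.6 and 32.9 CPM (-1.36 ± 0.10; edgeR, adjusted p = 8.7e-07) and CTT1, cytosolic catalase, also a heme enzyme, by a log2 change of -0.81 ± 0.10 (edgeR, adjusted p = 5.59e-05).

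Proteasome genes were lower by small, shared amounts. Of 33 listed, 24 fell and none rose, against 13% of all genes that fell, with a median log2 change of -0.19. In WT the median was -0.06, and 6 fell and 4 rose, smaller shares than the 25% and 24.5% of all genes there. The difference between the genotypes passed for 7 of the 33, a smaller share than the 30.8% of all genes. All 7 were more negative in H113N. The count of 24 became 26 with scaling within chromosomes and 9 with all 16 libraries in the fit. PRE7, a core subunit on chromosome II, went from 251, 262, 253 and 274 to 176, 183, 180.0 and 199 CPM (-0.49 ± 0.05; edgeR, adjusted p = 1.88e-05), and from this to -0.30 with scaling within chromosomes. RPN9, a lid subunit on chromosome IV, went from 133, 139, 135 and 121 to 103, 98.5, 98.9 and 93.3 CPM (-0.43 ± 0.05; edgeR, adjusted p = 9.94e-05). The 33 include the gene of the transcription factor Rpn4, which fell in H113N and rose in WT. The element read by Rpn4, GGTGGCAAA, was found before 27 of the 33 (81.8%) and before 1.40% of all genes. It stands in capitals in the stretches of the named subunits.
PRE7 (chrII:141150-141178, plus strand, R64): aaactcaaagGGTGGCAAAaacaagcggt
RPN9 (chrIV:1322086-1322114, plus strand, R64): gctttcatccGGTGGCAAAagtaagaaca

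Translation and chromatin genes moved little. Of 132 cytosolic ribosomal protein genes, 9 rose and 5 fell, smaller shares than the 12.3% and 13% of all genes. By sign alone 115 of the 132 log2 changes were above 0, with a median of 0.06. The 9 became 4 without shutoff replicate 3 and 5 without H113N replicate 2 or 4 or shutoff replicate 5, and the 5 became 0 with scaling within chromosomes or without shutoff replicate 4, 2 without shutoff replicate 2, and 3 without shutoff replicate 5, without H113N replicate 5 or with all 16 libraries. The 5 were RPL32, RPS8A, RPL19B, RPS6B and RPL21A, all on chromosome II, with log2 changes from -0.19 ± 0.05 to -0.18 ± 0.06, and scaling within chromosomes took them to between 0.002 and 0.02. Of 11 histone genes, none rose and 2 fell, against 12.3% and 13% of all genes, with a median of -0.02. The 2 were HTA2, an H2A gene (-0.24 ± 0.06), and HHF1, an H4 gene (-0.21 ± 0.06), both on chromosome II and each with a close paralog (edgeR, adjusted p = 0.0131 and 0.0264). Both calls were lost with all 16 libraries in the fit, and scaling within chromosomes took the log2 changes to -0.04 and -0.01, leaving 1 histone gene higher and 0 lower. The HHF1 call was also lost without any one of 6 libraries, H113N replicates 4 and 5 and the 4 shutoff libraries. In WT, 9 of the 11 histone genes rose, against 24.5% of all genes that rose there, and the difference between genotypes passed for 8, all more negative in H113N.

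Mating genes were among those that fell. Of 7 a-cell genes 5 fell, with a median log2 change of -0.67 against -2.23 in WT, and all 7 differences passed. AGA2, the adhesion subunit of a-agglutinin, went from 85.5, 98.1, 90.4 and 81.5 to 36.8, 39.1, 38.3 and 40.6 CPM (-1.20 ± 0.07; edgeR, adjusted p = 8.47e-08). MFA2, an a-factor gene, went from 263, 279, 269 and 256 to 149.6, 159, 155 and 144 CPM (-0.81 ± 0.05; edgeR, adjusted p = 1.53e-07). MFA1, the other a-factor gene, had -0.75 ± 0.06, BAR1, a protease that degrades alpha-factor, -0.67 ± 0.06, and STE2 -0.57 ± 0.07 (edgeR, adjusted p = 1.27e-06, 6.13e-06 and 6.75e-05). Of 16 pheromone-response genes 8 fell and none rose, 5 with all 16 libraries. AGA1, the anchor of a-agglutinin, had -0.87 ± 0.09 and PRM1, a cell-fusion protein, -0.82 ± 0.09 (edgeR, adjusted p = 1.63e-05 and 3.49e-05). Of 4 alpha-cell genes 1 rose and 1 fell. MF(ALPHA)1, an alpha-factor gene, was low and went from 34.7, 34, 30.8 and 37.4 to 13.5, 14.7, 12.8 and 10.9 CPM (-1.39 ± 0.10; edgeR, adjusted p = 5.83e-07). SAG1, alpha-agglutinin, had 0.20 ± 0.06 (edgeR, adjusted p = 0.0175), a call lost without H113N replicate 5 or shutoff replicate 3 or 4 and with scaling by library size alone.

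**Figure D4:**
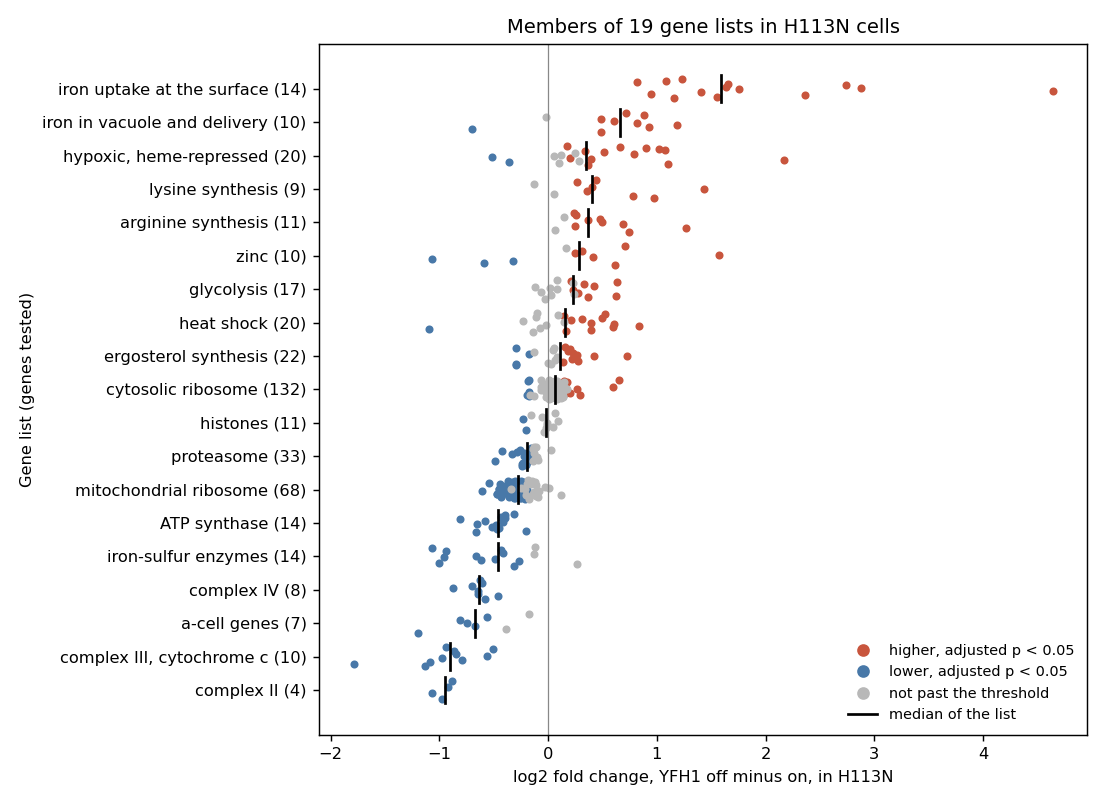
Log2 fold change, YFH1 off minus on in H113N (horizontal axis), of every tested member of 19 gene lists (vertical axis, number of genes in brackets), with 1 point per gene and a black line at the list median. Points are red or blue where the BH-adjusted p was under 0.05 and the gene was higher or lower, and gray otherwise. Iron uptake lies at the right with a median of 1.59 and complex II at the left with -0.95.

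The effect in H113N was set against that in WT cells by an interaction test on all 16 libraries. The difference passed for 1808 of 5876 genes (30.8%). Of the 1481 genes called in H113N, it passed for 721. For 449 of these the effect was smaller in H113N than in WT. For the other 272 it was larger in H113N than in WT or opposite in direction. YFH1 itself fell less in H113N than in WT (difference 0.84, edgeR, adjusted p = 0.00113). Whether this bears on the smaller effects was not tested. All surface iron genes but FRE4 belonged to the 449: the median log2 change of the 14 surface genes was 1.59 in H113N and 3.49 in WT, and 13 of 14 were less raised in H113N. The same held for 4 of 4 genes of complex II, 9 of 10 of complex III and cytochrome c, and 7 of 8 of complex IV, whose WT medians were -2.52, -2.64 and -1.56. YMR317W, an uncharacterised gene, had the largest gap from WT among the 12 largest rises, at 1.64 ± 0.12 in H113N and 9.44 ± 0.18 in WT (difference -7.77; edgeR, adjusted p = 1.39e-12).

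A total of 114 genes were called in both genotypes in opposite directions, and 4 of them moved at least 2-fold in H113N. PUT1 rose in H113N and fell in WT, at 1.53 ± 0.12 and -0.74 ± 0.19 on the log2 scale (edgeR, adjusted p of the difference = 1.09e-06). EEB1, which makes medium-chain ethyl esters, was at 139, 174, 165 and 151 CPM in H113N and 350.2, 337, 386 and 387 CPM in H113N YFH1-off. Its groups were well apart, with log2 changes of 1.21 ± 0.07 in H113N and -1.11 ± 0.09 in WT (edgeR, adjusted p of the difference = 3.49e-10). IZH4 fell in H113N at -1.07 ± 0.08 and rose in WT at 0.26 ± 0.09 (edgeR, adjusted p of the difference = 8.77e-07). TIP1, a cell-wall mannoprotein on chromosome II, was at 411, 487, 448 and 550.0 CPM in controls and 217, 245, 221 and 227 CPM in shutoff cells, -1.06 ± 0.08 in H113N and 0.52 ± 0.12 in WT (edgeR, adjusted p of the difference = 4.14e-06). Scaling within chromosomes kept its fall in H113N at -0.86. AQR1, a plasma membrane exporter, fell from 739, 452, 645 and 546 to 267, 256, 209 and 231 CPM in H113N (-1.31 ± 0.13; edgeR, adjusted p = 9.47e-06). Its WT change was -0.64 ± 0.18, and the difference did not pass (edgeR, adjusted p = 0.0613).

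**Figure D5:**
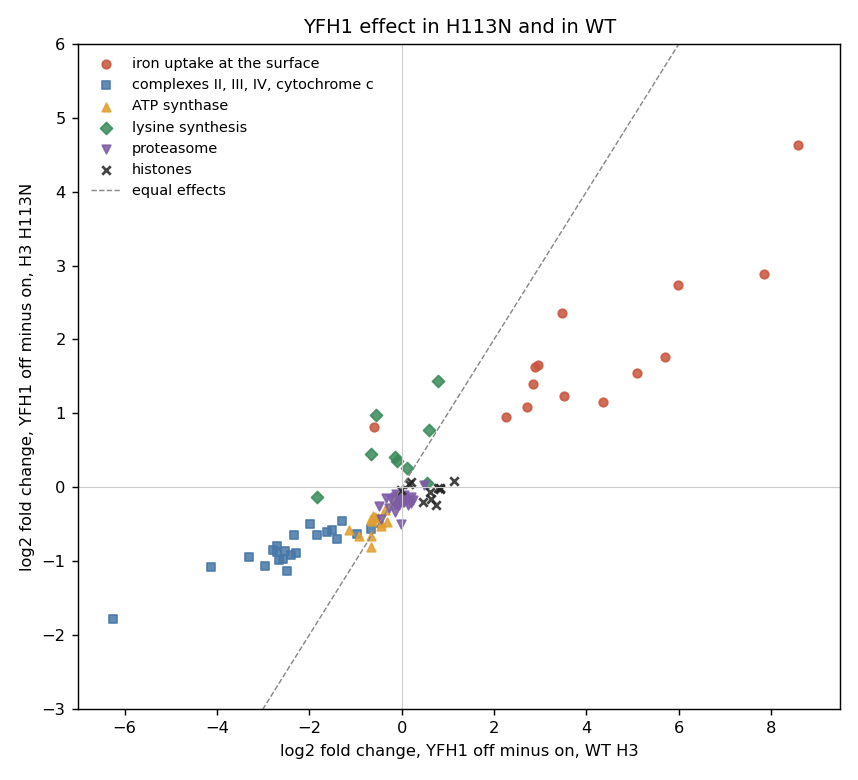
Log2 fold change with YFH1 off in H3 H113N cells (vertical axis) against that in WT cells (horizontal axis) for members of 6 groups of lists, with 1 point per gene and a dashed line where both effects are equal. Iron uptake genes except FRE4 lie to the right of the line, most respiratory genes to the left and ATP synthase genes near it, and lysine genes except LYS4 lie above 0 in H113N.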

How the data were processed

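Per the submitters' processing notes, the authors used FastQC, cutadapt, HISAT2, featureCounts, DESeq2 and the sacCer3 build; the use of strand and the treatment of reads shared by paralogs are not given in the sources used here. The authors deposited raw counts for 6692 genes, and a second table that, per the file headers, comes from DESeq2. Its normalized signal values, deposited by the authors, equal the counts divided by 1 size factor per library, and were used for gene names and this check alone. Its adjusted p-values, deposited by the authors, were below 0.05 for 1180 genes in this comparison in the authors' deposited table, 1106 of them also called here. Every test used the deposited counts. All per-library columns were matched to samples (0 were not).

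Counts of the 8 libraries were fitted with edgeR 4.0.16 (limma 3.58.1, R 4.3.3; filterByExpr, TMM, glmQLFit, glmQLFTest, group as the only term), and p-values were adjusted by Benjamini-Hochberg over all 5849 genes tested, with a threshold of 0.05. The difference from WT was tested the same way on all 16 libraries (5876 genes), and WT effects come from that fit. SEs were derived from the log2 fold change and its F statistic. Alternatives were DESeq2 1.42.0, other scalings and filters, a replicate block, all 16 libraries and leaving out each library. Scripts were tested on simulated data. No 2 libraries of a group agreed within sampling noise. Promoter sequences and positions come from RefSeq R64, which matched 6008 of the 6692 gene IDs.

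The members and the 50 gene lists were chosen with earlier results of these data known. Named genes are YFH1, the 12 largest rises and falls among called genes with non-overlapping groups and an average log2 CPM of at least 3, the 2 members with the smallest p of each of 33 lists described by gene, and the regulator and neighbour lists in full. EEB1, TIP1, CCC1, ISU1, FRE4, HMX1, FET3, FTR1, HAP4 and ADE2 were chosen after their values were seen, as were ASG7, MF(ALPHA)2 and the further called members of lists with 5 or fewer calls in a direction. Other lists are given by counts.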

Additional observations from a re-analysis of the deposited data

Results flagged for a closer look

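In 13 of 256 groups examined (128 named genes in the 2 conditions), 1 library stood away from the other 3 of its group. The measure was Dixon's 95% criterion for 4 values, which chance meets in about 1 in 20 independent groups. The named genes were chosen partly for non-overlapping groups or small p and share pathways and libraries. The count therefore cannot be judged against that rate. Among the H113N controls, replicate 5 was high for LSO1 (4.63 CPM), FRE1 (158 CPM), BIO5 (21.4 CPM), CTR1 (21.8 CPM), RPL32 (1779 CPM) and RPL19B (1751 CPM) and low for PRM1 (49.0 CPM). Control replicate 4 was high for CYT1 (86.3 CPM), NDI1 (84.4 CPM) and SDH1 (96.9 CPM) and low for HEM25 (24.3 CPM). In the shutoff group, replicate 5 was high for IZH1 (234 CPM) and replicate 2 was low for STI1 (229 CPM).

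The log2 effect of YFH1 shutoff in H113N minus that in WT passed the interaction test of edgeR (BH-adjusted p under 0.05) for 98 of the genes named in the text. Among genes that rose less in H113N than in WT, the difference for the iron surface genes was -3.92 for FIT1, -3.91 for FIT2, -4.93 for FIT3, -1.22 for FRE1, -3.21 for FRE2, -1.26 for FRE3, -3.52 for ARN2, -1.08 for ENB1, -1.30 for FET3 and -1.61 for FTR1. For other iron genes it was -3.43 for FRE5, -5.38 for LSO1, -1.16 for COT1, -0.95 for FET5, -1.79 for TIS11, -1.52 for HMX1, -1.86 for ISU2 and -0.36 for ISU1. For regulators it was -0.59 for YAP5, -0.83 for AFT1, -0.30 for AFT2, -0.30 for FRA1 and -1.62 for HAP1. For the remaining rises it was -7.77 for YMR317W, -8.44 for DAN1, -3.06 for TIR2, -1.88 for ERG3, -0.92 for ERG27, -2.0 for CTR1, -1.05 for CTR2, -1.13 for BAT2 and -0.21 for ILV5.

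Among genes that fell less in H113N than in WT, the difference for respiratory genes was 4.49 for CYC1, 3.07 for CYT1, 1.37 for COR1, 1.63 for QCR2, 1.91 for SDH2, 1.5 for SDH3, 1.86 for COX6, 1.21 for COX5A, 3.19 for CIR2, 1.65 for NDI1, 1.70 for SDH1, 1.42 for SDH4 and 2.51 for CYB2. In the citric acid cycle it was 0.66 for LPD1, 1.04 for ACO1, 0.87 for KGD1 and 1.03 for KGD2. For enzymes that use iron, clusters, heme or biotin precursors, or that act in heme synthesis, it was 1.26 for LIP5, 2.50 for LEU1, 1.59 for GLT1, 2.39 for BIO2, 1.65 for BIO4, 2.22 for HEM15, 1.93 for CCP1, 1.04 for CTT1, 0.58 for HEM1, 1.15 for ILV3 and 0.33 for ERG11. It was 0.84 for YFH1, 0.95 for CCC1, 0.64 for GRX4, 0.48 for DRE2, 1.07 for IDI1, 0.45 for IZH2 and 2.05 for HSP12, and among mating genes 2.25 for AGA2, 2.10 for AGA1, 1.87 for PRM1, 1.33 for MFA2, 1.19 for MFA1, 2.45 for BAR1 and 1.69 for STE2. For genes that did not pass in H113N it was 2.25 for HAP4, 0.24 for GRX3 and 0.44 for HEM25.

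In 21 named genes the difference had the direction of the H113N effect. Of the rises it was 0.67 for LYS20, 0.58 for LYS21, 0.69 for ARG7, 2.30 for PUT1, 2.35 for EEB1, 0.60 for ENO2, 1.26 for TDH2, 1.40 for LEU2, 0.29 for BPL1 and 1.43 for FRE4. Of the falls it was -1.30 for IZH4, -0.45 for PRE7, -0.96 for HTA2, -0.64 for HHF1, -1.55 for TIP1, -0.33 for ERG5, -0.22 for RPL32, -0.31 for RPS8A, -0.19 for RPL19B, -0.21 for RPS6B and -0.28 for RPL21A, and all of these except IZH4 and ERG5 lie on chromosome II.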

How the results depend on the processing

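The number of genes called in H113N lay between 1132 and 1477 when 1 library was left out, and every other setting also gave a count within 1.5 times of 1481: 1413 with DESeq2 (1360 of them shared), 1464 with DESeq2 size factors, 1528 with library size alone, 1447 without a filter, 1465 with at least 10 counts in every library, 1209 with all 16 libraries and, chosen after seeing the data, 1290 with scaling within chromosomes. The count of differences from WT, 1808, lay between 1173 and 2074 when 1 replicate number was left out, and that of more negative differences, 810, between 503 and 983; the low ends came without replicate 4, and the cause was not tested. Of the named genes, those that did not pass in H113N changed sign as follows: FRA2 to 0.017 with all 16 libraries and to above 0 without shutoff replicate 2, control replicate 4 or control replicate 5 (range -0.083 to 0.044 when 1 library was left out), HEM25 without shutoff replicate 2 (range -0.084 to 0.0040), and HAP3 to 0.041 with scaling within chromosomes. That scaling also turned the 5 ribosomal protein genes called lower: RPL32 to 0.018, RPS8A to 0.015, RPL19B to 0.015, RPS6B to 0.0082 and RPL21A to 0.0020. Named genes that lost their call are given in the report. Replicate numbers were not taken as pairs in the main fit. Deviations of same-numbered libraries correlated at 0.180, 0.0166, 0.217 and 0.166 for replicates 2 to 5. Replicates 2, 4 and 5 correlated best with their own number and replicate 3 did not, so a shared effect of replicate number remains possible. A replicate block gave 1743 calls, 1460 of them shared, and ended no named call. At this depth a level under 0.285 to 0.405 CPM cannot be told from 0.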

Other observations

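Counts for further lists stand against 12.3% of all genes that rose and 13% that fell. Of 12 fermentation genes 4 rose and 1 fell, of 16 glycogen and trehalose genes 5 rose and 1 fell, and of 11 hexose transporters 1 rose and 3 fell. The 5 glycogen and trehalose genes became 1 with all 16 libraries, 2 without shutoff replicate 4, 3 without shutoff replicate 5 or H113N replicate 2, and 8 without H113N replicate 4. Of 12 genes of gluconeogenesis and the glyoxylate cycle 2 rose and 1 fell, of 14 peroxisomal beta-oxidation genes 1 rose and 2 fell, and of 20 sulfur assimilation genes 1 rose and 3 fell, 0 with all 16 libraries in the fit and 5 without H113N replicate 5. Of 17 phosphate genes 2 rose and 4 fell, and the 4 became 1 with all 16 libraries. Of 8 ribonucleotide reductase genes 1 rose and 2 fell. Of 10 drug efflux genes 2 rose and none fell, and neither rise passed with scaling within chromosomes. With that scaling 0 genes of gluconeogenesis and the glyoxylate cycle were called lower.

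Of 36 ribosome biogenesis genes 1 rose and 5 fell, the 5 being close to the 13% of all genes. By sign alone 35 of the 36 log2 changes were below 0, with a median of -0.10. The 5 became 1 without any of 6 libraries (H113N replicate 2, 3 or 5, shutoff replicate 3, 4 or 5), became 14 without H113N replicate 4 and were 0 with all 16 libraries. With scaling within chromosomes 3 were called lower. Of 6 retrograde-signalling genes none rose and 1 fell, a call lost with scaling within chromosomes. Of 8 genes of the mitochondrial genome 2 could be tested and 0 passed with edgeR or DESeq2, with 1 at an unadjusted edgeR p below 0.05. Group means of these 2 lay between 0.955 and 3.16 CPM, so these libraries of polyadenylated RNA say little of mitochondrial transcripts. Of 6 sporulation genes 1 rose and none fell. Of 7 genes often used as strain markers 2 rose and 1 fell.

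ADE2, a purine synthesis gene in the marker list, was singled out after its values were seen. It was at 1411, 304, 1669 and 772 CPM in H113N replicates 2 to 5 and at 897, 965, 838 and 817 CPM in the shutoff replicates. Control replicate 3, the library apart on the second principal component, was the lowest of the 8, and the groups overlapped.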
